A study of Mus musculus with 9 samples.

Results

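Oxidative phosphorylation was described at the level of RNA in whole pancreas of 8-week-old mice, over 101 of the 46078 genes in the deposited table: 89 encoded in the nucleus and 12 on the mitochondrial genome (the mt- genes). They are the rows whose symbol starts with Nduf, Uqcr, Atp5, mt-Nd, mt-Co, mt-Cytb or mt-Atp, or is one of Cox4 to Cox8 or Sdha to Sdhd, and whose mean over the 9 libraries reached 10 normalized counts. Of 126 rows with such a symbol 25 were below that mean, and 15 of those had no read in any library. The groups were 3 mice with an S6k2 allele labelled RK (S6k2_RK), 3 mice with a Snd1 allele labelled KI (Snd1_KI) and 3 wild-type littermates (WT). S6K2, encoded by Rps6kb2, is a ribosomal S6 kinase, and SND1 is a Tudor-domain protein; the labels give neither the sex of the mice nor whether the alleles were carried on both chromosomes. Frozen tissue was ground whole, polyadenylated RNA was selected and 1 strand-specific library was made from each pancreas.

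In oxidative phosphorylation, complexes I to IV of the inner mitochondrial membrane carry electrons from NADH and succinate to oxygen, and complexes I, III and IV pump protons as they do so. Complex V, the ATP synthase, lets the protons back and makes ATP. Complex II is encoded by the nucleus alone, whereas the other complexes combine nuclear subunits with a few encoded on the mitochondrial genome, whose RNA is cut out of long transcripts of both strands. Acinar cells, which make up most of the pancreas, use this ATP to make and secrete digestive enzymes.

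The nuclear members comprised 36 subunits and 8 assembly factors (Ndufaf1 to Ndufaf8) of complex I, 4 subunits of complex II, 8 of complex III, 13 of complex IV and 17 of complex V, the ATP synthase inhibitor Atp5if1, and 2 pseudogenes, Ndufa12-ps and Ndufs5-ps. Ndufa4, Ndufa4l2 and Cox7a2l were counted with complex IV. The 12 mt- members encode 6 subunits of complex I, 1 of complex III, 3 of complex IV and 2 of complex V. The members closest above the minimum were Ndufaf6 at a mean of 10.3 normalized counts, and the closest below it was Ndufb4c at 6.40.

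The libraries held 13461427 to 21034501 reads, and a normalized count is a read count divided by 1 size factor per library. Digestive enzymes took 76.1% to 77.6% of all counts in S6k2_RK, 74.8% to 75.7% in Snd1_KI and 71.4% to 72.4% in WT. Genes that mark T cells were lower in both mutants, 15 of 15 tested in S6k2_RK against WT and 13 of 15 in Snd1_KI against WT, as were 11 of 11 and 10 of 11 genes that mark B cells. Summed over the 16 T cell markers, the level was 85.9 to 101 normalized counts in S6k2_RK, 71.3 to 206 in Snd1_KI and 455 to 1388 in WT. Among all tested genes, 6.83% were called lower (limma adjusted p below 0.05) and 5.20% higher in S6k2_RK against WT. In Snd1_KI against WT these shares were 3.20% and 2.40%. Of 13 macrophage markers 8 were called lower in S6k2_RK and 1 in Snd1_KI, of 15 adipocyte markers 7 and 0, of 12 endothelial markers 3 and 2, and of 12 islet markers 0 and 0. Ductal markers went the other way: of 11 tested, 3 were called higher in each mutant and 1 lower in S6k2_RK, with Krt18 at a log2 fold change of 0.66 in S6k2_RK and 0.47 in Snd1_KI and the mucin Muc1 at 0.80 and 0.72. In ground tissue, fewer cells of a type and less RNA per cell cannot be told apart. Skeletal muscle markers summed to between 6.42 and 29.0 normalized counts in every library, and Ucp1, the defining gene of brown fat, had no read in any library.

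The mitochondrially encoded members were the most abundant of the set and also the most uneven. Per kb of transcript, mt-Co1, the catalytic subunit of complex IV, had 31955 normalized counts in S6k2_RK, 28550 in Snd1_KI and 36715 in WT, and mt-Cytb, the cytochrome b of complex III, had 32922 in S6k2_RK, 28896 in Snd1_KI and 36483 in WT. The complex I genes mt-Nd1, mt-Nd2, mt-Nd5 and mt-Nd4 followed, at 17981, 15449, 12179 and 7607 per kb in WT. The remaining mt- members were far lower: mt-Co2 had 324 per kb in WT, mt-Nd6, which lies on the opposite strand from the rest, 314, mt-Atp8 254, mt-Nd3 175, mt-Atp6 148 and mt-Co3 24.5. The 13th protein gene of the mitochondrial genome, mt-Nd4l, had no read in any of the 9 libraries.

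Of the low genes mt-Co2, mt-Atp6, mt-Co3, mt-Nd3 and mt-Nd4l matched a copy of the mitochondrial genome in the nucleus, whereas mt-Atp8 had no annotated copy and mt-Nd6, which lies apart from them between mt-Nd5 and mt-Cytb, had one of 93.6% identity on chromosome 4. On chromosome 1 (GRCm38, 24611535 to 24616197, 4663 bases) the annotation places 7 unprocessed pseudogenes in a row, each matching a different mt- gene. Aligned to the annotated transcripts, mt-Co2 was identical to Gm28661 over 681 bases, mt-Atp6 to Gm10925 over 678 and mt-Co3 to Gm28437 over 783. The chromosome 1 sequence between the end of Gm10925 (24614651) and the start of Gm28661 (24614885) was not read. A copy of mt-Atp8, which lies between mt-Co2 and mt-Atp6, could therefore not be checked for in that stretch. The sequences of mt-Nd4l and mt-Nd3 are shown because they are identical, or nearly so, to their copies. The 294 bases from the start of mt-Nd4l (mitochondrial genome, 9877 to 10173, plus strand) are letter for letter those of Gm10222 (chromosome 1, 24612407 to 24612700, minus strand):
mt-Nd4l and Gm10222: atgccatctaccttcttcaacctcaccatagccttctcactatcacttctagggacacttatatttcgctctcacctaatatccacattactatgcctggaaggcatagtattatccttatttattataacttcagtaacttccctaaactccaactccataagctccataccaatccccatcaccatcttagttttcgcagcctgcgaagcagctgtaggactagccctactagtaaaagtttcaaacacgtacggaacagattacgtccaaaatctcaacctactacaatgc
Bases 1 to 300 of mt-Nd3 (mitochondrial genome, 9459 to 9806, plus strand) differ from Gm28438 (chromosome 1, 24612775 to 24613119, minus strand) at 1 base, in capitals:
mt-Nd3: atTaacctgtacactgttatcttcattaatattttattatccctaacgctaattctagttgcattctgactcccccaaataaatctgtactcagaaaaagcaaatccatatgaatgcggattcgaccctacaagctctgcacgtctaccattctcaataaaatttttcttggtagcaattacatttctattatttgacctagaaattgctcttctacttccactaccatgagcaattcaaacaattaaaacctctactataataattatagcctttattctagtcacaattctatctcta
Gm28438: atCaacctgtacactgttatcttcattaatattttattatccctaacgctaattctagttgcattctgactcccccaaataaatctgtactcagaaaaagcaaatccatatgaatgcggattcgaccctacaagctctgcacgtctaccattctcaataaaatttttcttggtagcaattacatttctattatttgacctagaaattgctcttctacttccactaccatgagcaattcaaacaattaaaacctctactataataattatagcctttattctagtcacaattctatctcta

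By contrast, the closest annotated copy of the abundant mt-Cytb was Gm11410 (chromosome 4, 80003989 to 80005131, plus strand), with an identity of 92.9%. Over the 200 bases from base 2 of both, 12 differ, in capitals:
mt-Cytb: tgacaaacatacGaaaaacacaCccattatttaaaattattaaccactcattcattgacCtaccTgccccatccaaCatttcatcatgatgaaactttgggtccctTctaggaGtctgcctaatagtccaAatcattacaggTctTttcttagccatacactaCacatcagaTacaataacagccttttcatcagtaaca
Gm11410: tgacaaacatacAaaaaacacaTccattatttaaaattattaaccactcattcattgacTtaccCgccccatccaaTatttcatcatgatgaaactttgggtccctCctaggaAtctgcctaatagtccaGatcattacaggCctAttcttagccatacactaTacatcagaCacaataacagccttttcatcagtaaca
The 5 mt- genes with an annotated copy of at least 99% identity over at least 90% of their length had 0 to 289 normalized counts per kb over the 9 libraries, with a median of 123. The other 8 had 161 to 32767 per kb, with a median of 12109. Of these 8, mt-Nd4 was identical to Gm28439 over 876 of its 1378 bases and still had 6779 per kb, whereas mt-Atp8, which lies between mt-Co2 and mt-Atp6 and shares 43 bases with mt-Atp6, had 161. How the authors treated reads that match several places is not given in the sources used here, and the part of the copies in the low levels was not tested.

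**Figure D1:**
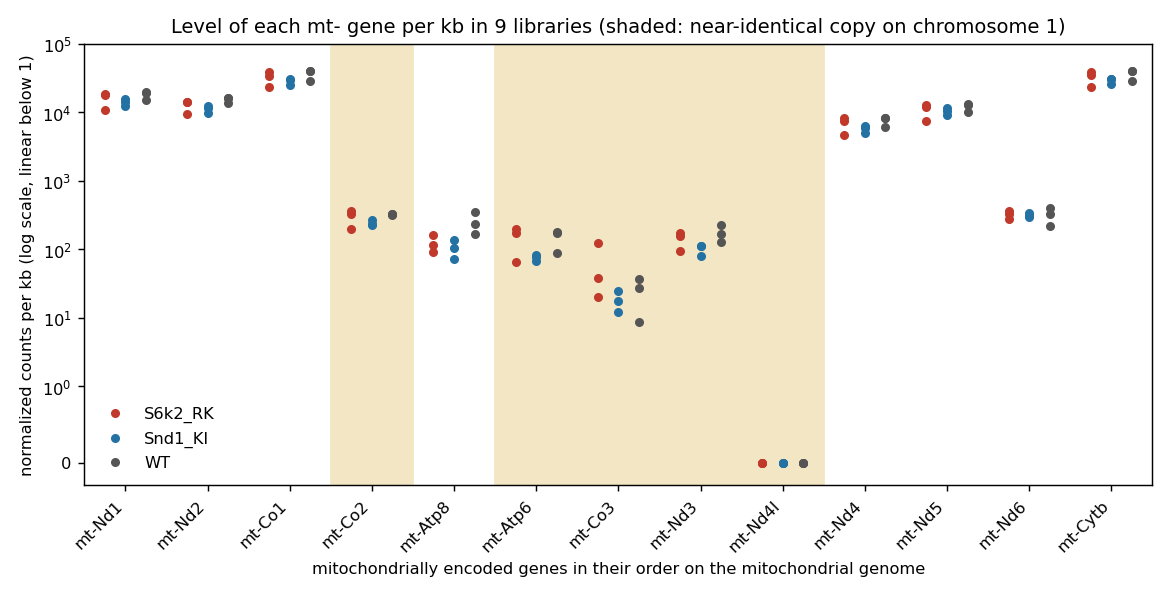
Normalized counts per kb of transcript (vertical axis, log scale, linear below 1) of the 13 protein genes of the mitochondrial genome in genome order, each point 1 library of S6k2_RK, Snd1_KI or WT. Shaded genes have an annotated copy on chromosome 1 of at least 99% identity over at least 90% of their length. The shaded genes have at most 289 per kb on average and mt-Nd4l is at 0, whereas mt-Co1 and mt-Cytb average 28550 to 36715 per kb over the groups.

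The chromosome 1 pseudogenes held at most 69.5 normalized counts in any library. Relative to their mt- counterparts, annotated copies held 40.1% as many counts for mt-Co3, 28.8% for mt-Nd3, 12.9% for mt-Atp6 and 5.54% for mt-Co2. The share was 0.0479% for mt-Co1 and 0.0185% for mt-Nd4. Gm10222 had 2.68 normalized counts in S6k2_RK replicate 2 and 2.14 in Snd1_KI replicate 3. It had 4.36 and 0.901 in WT replicates 1 and 2, whereas mt-Nd4l had no read in any library. Gm29216, which matches mt-Co1 over 483 bases at 99.8% identity, had 3.999, 1.34 and 6.18 normalized counts in the S6k2_RK libraries, 55.4, 62.7 and 69.5 in Snd1_KI and 4.36, 6.31 and 0.983 in WT, so that Snd1_KI stood apart from both other groups. Its counterpart mt-Co1 had at least 36418 normalized counts in every library and was not called in any comparison (limma adjusted p of 0.469 in S6k2_RK against WT and 0.271 in Snd1_KI against WT). Both mt-Co3 and its copy Gm28437 were highest in S6k2_RK replicate 1. The gene mt-Co3 had 96.0, 16.1 and 29.7 normalized counts in S6k2_RK, 9.52, 13.9 and 19.2 in Snd1_KI and 21.8, 28.8 and 6.88 in WT. Gm28437 had 52.0, 4.03 and 8.66 in S6k2_RK, 4.33, 2.32 and 5.35 in Snd1_KI and 10.5, 9.91 and 0 in WT. Against WT the S6k2_RK estimate of mt-Co3 was 1.08 on the log2 scale, with a limma adjusted p of 0.216 (SE 0.549).

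Among the mt- members, 1 passed the test against WT, and most estimates were negative. Calls here mean an adjusted p below 0.05 in limma, fitted on log2 values of all 11953 genes whose mean reached 10. In S6k2_RK against WT none of the 12 was called, and 2 had an unadjusted p below 0.05, beside 3224 of all 11953 tested genes. Both edgeR and DESeq2 on the recovered reads called mt-Atp8 lower there, and the median log2 fold change of the 12 was -0.19, beside 0.002 over all tested genes. Of all tested genes 5.20% were called higher and 6.83% lower in that comparison. In Snd1_KI against WT mt-Atp8 fell, 1 of 12 or 8.33%, beside 3.20% of all tested genes called lower and 2.40% higher, and the median of the 12 was -0.36, beside 0.003 over all tested genes; of the 12, 11 had negative estimates. The libraries of Snd1_KI and WT did not overlap for mt-Nd2, mt-Nd3, mt-Co2, mt-Atp6 and mt-Atp8, with Snd1_KI lower for these 5 of 12, beside 13.0% of all tested genes. Of these 5 only mt-Nd2 was abundant, and mt-Nd3, mt-Co2 and mt-Atp6 have a near-identical copy on chromosome 1. The mt- genes moved together between libraries, so the 5 are not separate observations.

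The gene mt-Atp8, a small membrane subunit of the ATP synthase, had 33.0, 18.8 and 23.5 normalized counts in S6k2_RK, 21.6, 27.9 and 15.0 in Snd1_KI and 48.9, 72.1 and 34.4 in WT. Every WT library was above every mutant library, with WT replicate 3 and S6k2_RK replicate 1 nearly touching. The log2 fold change was -0.99 in S6k2_RK against WT (SE 0.328, limma adjusted p = 0.0560) and -1.21 in Snd1_KI against WT (SE 0.328, limma adjusted p = 0.0363). Leaving out WT replicate 1, WT replicate 2 or any single Snd1_KI mouse ended that Snd1_KI call (limma adjusted p up to 0.220), as did testing genes of any nonzero mean (0.0617). Whether reads of mt-Atp8 also match the unread stretch of chromosome 1 was not tested.

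The abundant mt- genes moved together from library to library. In all 12 mt- members S6k2_RK replicate 2 was the lowest of its group, and in 11 of 12 WT replicate 3 was. mt-Co1 had 59321, 36418 and 52373 normalized counts in S6k2_RK, 38744, 46468 and 47117 in Snd1_KI and 63069, 62193 and 44910 in WT, and the groups overlapped. Its log2 fold change was -0.21 in S6k2_RK against WT (SE 0.175) and -0.35 in Snd1_KI against WT (SE 0.175). Without S6k2_RK replicate 2 the median of the 12 in S6k2_RK against WT was 0.04, against -0.33 without S6k2_RK replicate 1, and without WT replicate 3 the median in Snd1_KI against WT was -0.51. On the opposite strand, mt-Nd6 differed little, with 169 ± 23.0, 166 ± 9.77 and 163 ± 46.8 normalized counts in S6k2_RK, Snd1_KI and WT (mean ± SD, n = 3).

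Within each library the mt- members were set against the nuclear ones, a ratio that does not depend on the size factor. Summed mt- counts were 3.99, 2.41 and 3.36 times the summed nuclear counts in S6k2_RK, 2.92, 3.26 and 3.56 times in Snd1_KI and 4.50, 3.91 and 3.51 times in WT. S6k2_RK replicate 1 lay within the WT range, and Snd1_KI replicate 3 was just above WT replicate 3, so both mutants overlapped WT. On the log2 scale the ratio averaged 1.67 ± 0.368 in S6k2_RK, 1.70 ± 0.143 in Snd1_KI and 1.98 ± 0.179 in WT, a difference from WT of -0.31 and -0.29. As a share of all counts, mt- members took 0.783% ± 0.236 in S6k2_RK, 0.818% ± 0.0689 in Snd1_KI and 1.27% ± 0.221 in WT, and nuclear members 0.239% ± 0.0162, 0.252% ± 0.00749 and 0.319% ± 0.0303 (mean ± SD, n = 3). Both shares were lowest on average in S6k2_RK, where digestive enzymes took the most counts, and their part in the shares was not tested.

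Among the nuclear members the complexes differed in level more than the groups did. Per kb of transcript in S6k2_RK, complex V subunits had a median of 897 normalized counts, complex IV 678, complex III 512, complex I 333, complex II 285 and the complex I assembly factors 24.7. The order was the same in Snd1_KI, at 791, 678, 449, 285, 280 and 29.4, and in WT, at 884, 665, 507, 290, 244 and 31.9. The highest nuclear members in WT were Uqcrq, a small subunit of complex III, at 3162 per kb, Atp5f1e, the epsilon subunit of the ATP synthase, at 2130, Cox4i1, the main form of a regulatory subunit of complex IV, at 1993, and Atp5f1b, the catalytic beta subunit of the ATP synthase, at 1933. Among the assembly factors Ndufaf8 had 59.2 and Ndufaf2 55.4 per kb, the inhibitor Atp5if1 had 453 and Cox7c, a small subunit of complex IV, 964. In complex I Ndufb9 had 1626 and Ndufb8 1155 per kb, in complex II the iron-sulfur subunit Sdhb had 390 and the membrane anchor Sdhd 249, and Uqcrh, the hinge protein of complex III, had 1366. Subunits of complex II, which stand in a fixed ratio in the enzyme, spanned 112 to 390 per kb, and those of complex I spanned 32.3 for Ndufb2 to 1626 for Ndufb9. Values per kb rest on 1 chosen transcript per gene, of 3171 nt for Sdhc, the lowest of complex II. Ndufb2 matched an annotated copy, Gm42420, over 145 bases at 100% identity, and the part of this copy in its low level was not tested.

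The isoforms present were those of tissues other than muscle and testis. Over the 9 libraries Cox6a1 had 4904 reads and its heart and muscle form Cox6a2 had 2, Cox7a2 had 3064 and the muscle form Cox7a1 had 10, and Cox8a had 3341 against 11 for the muscle form Cox8b. The testis forms Cox6b2, Cox7b2 and Cox8c had 19, 5 and 1 reads, beside 4464 for Cox6b1 and 5271 for Cox7b. Cox4i2, the form of Cox4i1 best known from lung, had 21 reads, beside 14320 for Cox4i1. Ndufa4l2, a hypoxia-responsive relative of Ndufa4, had 122 reads and Ndufa4 had 4547. The 3 genes that encode the same mature c subunit of the ATP synthase ring were all used, with 6289 reads of Atp5mc1, 4109 of Atp5mc2 and 8660 of Atp5mc3.

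In S6k2_RK against WT the nuclear members stood slightly higher, and 4 of 89 were called. Both directions were present: Atp5f1a and Atp5mc2 rose, and Atp5mk and Ndufb8 fell. Of the 101 members 2 were called in each direction, beside 5.20% of all tested genes called higher and 6.83% called lower. The median log2 fold change of the nuclear members was 0.11, beside 0.002 over all tested genes, with 61 positive and 28 negative estimates. Libraries of S6k2_RK and WT did not overlap for 15 members that were higher and 4 that were lower, which is 14.9% and 3.96% of 101, beside 14.7% and 13.6% of all tested genes.

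Both members that rose in S6k2_RK belong to the ATP synthase. Atp5f1a, the alpha subunit of its catalytic head, had 2667, 3010 and 3049 normalized counts in S6k2_RK, 2588, 2739 and 2636 in Snd1_KI and 2240, 2320 and 2408 in WT. All mutant libraries were above all WT libraries. The log2 fold change was 0.32 in S6k2_RK against WT (SE 0.0933, limma adjusted p = 0.0298) and 0.19 in Snd1_KI against WT (SE 0.0933, limma adjusted p = 0.255). Its partner Atp5f1b, at 4510 ± 468 normalized counts in S6k2_RK, 4323 ± 162 in Snd1_KI and 3703 ± 160 in WT (mean ± SD, n = 3), was not called, with a log2 fold change of 0.28 in S6k2_RK against WT (limma adjusted p = 0.0735).

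Atp5mc2, 1 of the c subunit genes (chromosome 15, 102662864 to 102672352, GRCm38), had 506, 518 and 518 normalized counts in S6k2_RK, 416, 484 and 452 in Snd1_KI and 339, 390 and 440 in WT. The S6k2_RK libraries were nearly equal and above all others. The log2 fold change in S6k2_RK against WT was 0.41 (SE 0.117, limma adjusted p = 0.0296), and those of Atp5mc1 and Atp5mc3 were 0.07 and 0.08 (limma adjusted p of 0.777 and 0.684). Atp5mc2 has 2 annotated copies, the longest of them, Gm10231, identical over 441 bases. Together the copies held 5.85 normalized counts. The largest positive estimate among members averaging 50 or more was that of Uqcrb, a subunit of complex III, with 247, 258 and 250 normalized counts in S6k2_RK, against 202, 198 and 169 in WT. The groups did not overlap, and its log2 fold change of 0.41 had a limma adjusted p of 0.0561. The calls of Atp5f1a and Atp5mc2 were lost without WT replicate 1 or 2 or S6k2_RK replicate 2 or 3 (highest limma adjusted p of 0.118 and 0.153), and that of Atp5f1a also without Snd1_KI replicate 1. A fit of the compared groups alone ended both (limma adjusted p of 0.0780 and 0.0615), and edgeR did not call Atp5f1a (adjusted p = 0.0839). With libraries scaled to equal totals, which puts the median of all tested genes at -0.51 in S6k2_RK against WT, both estimates were negative, -0.20 and -0.11.

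In Snd1_KI against WT 4 of 89 nuclear members were called, all lower, and together with mt-Atp8 the members called lower made up 4.95% of 101, beside 3.20% of all tested genes called lower and 2.40% called higher. Both comparisons with WT share the same WT libraries. They were Atp5mk, Ndufb8, Ndufb4 and Ndufaf5. The nuclear median was -0.07, beside 0.003 over all tested genes, with 36 positive and 53 negative estimates, and it was 0.02 without WT replicate 2. Libraries did not overlap for 5 members that were higher and 20 that were lower in Snd1_KI, which is 4.95% and 19.8% of 101, beside 14.1% and 13.0% of all tested genes. No member was called higher in Snd1_KI by limma, edgeR or DESeq2. An unadjusted limma p below 0.05 in either direction was found for 24 of 101 members, beside 2402 of all 11953 tested genes. The largest positive estimate, 0.34 for Ndufaf7, an assembly factor that methylates a complex I subunit, had a limma adjusted p of 0.354, with 55.4, 55.8 and 62.0 normalized counts in Snd1_KI, against 45.4, 44.1 and 46.2 in WT.

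Atp5mk and Ndufb8 fell in both mutants. Atp5mk, a small membrane subunit of the ATP synthase (chromosome 19, 47083464 to 47090647), had 338, 216 and 304 normalized counts in S6k2_RK, 235, 265 and 225 in Snd1_KI and 526, 548 and 347 in WT. All mutant libraries were below all WT libraries, and WT replicate 3 was the closest to them. The log2 fold change was -0.72 in S6k2_RK against WT (SE 0.176, limma adjusted p = 0.0121) and -0.94 in Snd1_KI against WT (SE 0.176, limma adjusted p = 0.00373). The Snd1_KI call held in all 24 alternatives that were run, with a highest adjusted p of 0.0363, whereas the S6k2_RK call was lost without S6k2_RK replicate 2 or WT replicate 1 or 2 (highest limma adjusted p = 0.0665).

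Ndufb8, an accessory subunit of the membrane arm of complex I (chromosome 19, 44548572 to 44555440), had 620, 327 and 500 normalized counts in S6k2_RK, 416, 434 and 354 in Snd1_KI and 826, 980 and 550 in WT. Snd1_KI lay below WT throughout, whereas S6k2_RK replicate 1 was above WT replicate 3. The log2 fold change was -0.71 in S6k2_RK against WT (SE 0.203, limma adjusted p = 0.0282) and -0.93 in Snd1_KI against WT (SE 0.203, limma adjusted p = 0.0110). The first call was lost without S6k2_RK replicate 2 or 3 or WT replicate 1 or 2, under a robust fit and in DESeq2 (highest adjusted p = 0.150), and the second without Snd1_KI replicate 3 or WT replicate 1 or 2 and under a robust fit (highest adjusted p = 0.106).

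Ndufb4 and Ndufaf5 were called in Snd1_KI against WT. Ndufb4, another accessory subunit of complex I (chromosome 16, 37647170 to 37654453), had 347, 254 and 349 normalized counts in S6k2_RK, 274, 307 and 258 in Snd1_KI and 431, 461 and 332 in WT. Its log2 fold change in Snd1_KI against WT was -0.53 (SE 0.150, limma adjusted p = 0.0424), and the call was lost without any 1 of the Snd1_KI libraries or WT replicate 1 or 2 (highest limma adjusted p = 0.202), and with a minimum mean of 50 (0.0522). Ndufaf5, an assembly factor of complex I (chromosome 2, 140170649 to 140203689), had 39.0, 28.2 and 22.3 normalized counts in S6k2_RK, 18.2, 20.9 and 13.9 in Snd1_KI and 43.6, 46.8 and 39.3 in WT. Snd1_KI was lowest, WT highest and S6k2_RK between them without overlap. The log2 fold change of Ndufaf5 was -0.56 in S6k2_RK against WT (SE 0.289, limma adjusted p = 0.228) and -1.26 in Snd1_KI against WT (SE 0.289, limma adjusted p = 0.0152). The Snd1_KI call of Ndufaf5 was lost without Snd1_KI replicate 3 or WT replicate 1 or 2 (highest limma adjusted p = 0.0829). Among the WT libraries replicate 2 had the highest Atp5mk, Ndufb8, Ndufb4 and Ndufaf5 and also the highest mean log2 level of T and B cell markers, 6.53, whereas replicate 3, the lowest in these 4 genes, had 6.19 and replicate 1 had 5.23. The same order was common in the set: replicate 2 was the highest WT library for 70 of 89 nuclear members and replicate 3 the lowest for 53. The part of these cells in the calls was not tested.

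**Figure D2:**
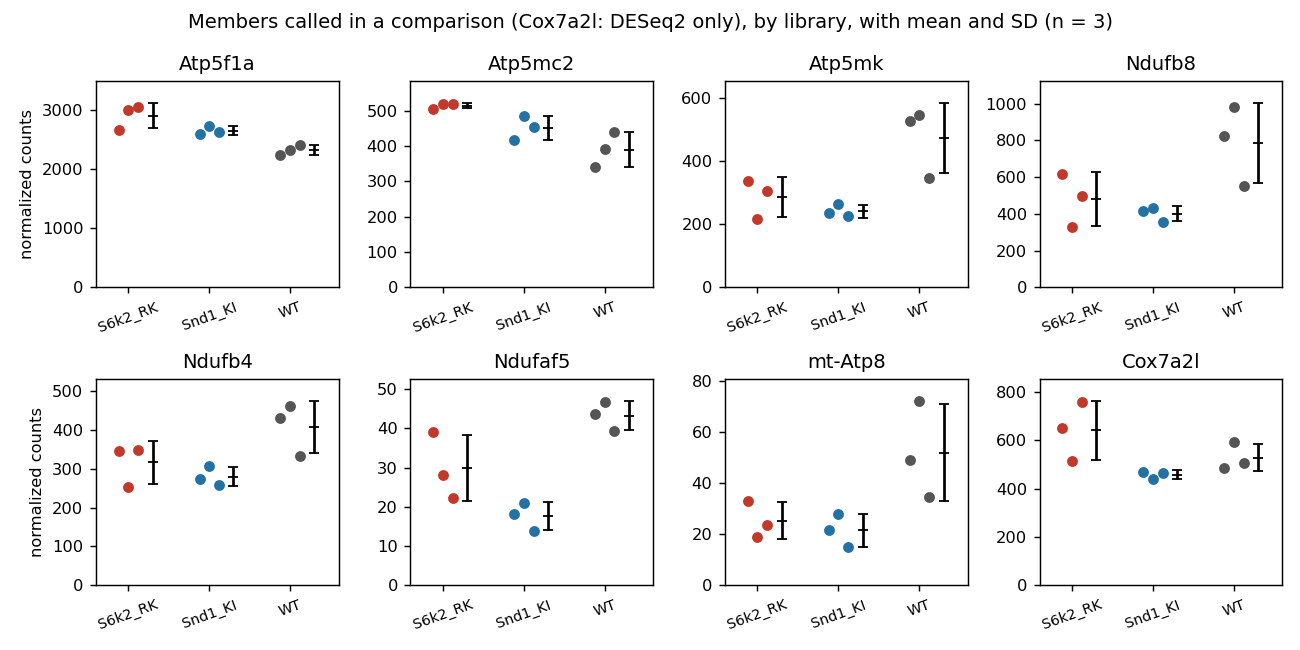
Normalized counts (vertical axes, from 0) of the 7 members called by limma in a comparison and of Cox7a2l, called by DESeq2 alone, with each point 1 library and bars showing the mean and SD (n = 3) of S6k2_RK, Snd1_KI and WT. Atp5f1a and Atp5mc2 are highest in S6k2_RK; Atp5mk, Ndufb8, Ndufb4, Ndufaf5 and mt-Atp8 are highest in WT, and replicate 3 is the lowest WT library for these 5.

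Tests on recovered reads called 0 to 8 members in each direction, and scaling to equal totals called many more lower. In S6k2_RK against WT edgeR called 1 member higher and 4 lower, beside 4.64% and 6.90% of all tested genes, and DESeq2 called 2 and 2, beside 5.05% and 6.34%. In Snd1_KI against WT edgeR called 0 higher and 6 lower, beside 2.55% and 4.16%, and DESeq2 called 0 and 8, beside 2.86% and 3.96%. With equal totals 0 members were called higher and 66 lower in S6k2_RK, beside 0.310% and 49.8%, and 0 and 36 in Snd1_KI, beside 0.376% and 13.2%.

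Promoters are shown for the called members that hold a motif of factors known for nuclear genes of respiration. In the RefSeq sequences from 250 bases before to 50 bases after the start (GRCm38.p6), 73 of the 87 nuclear members without pseudogenes were matched. The called member Atp5f1a was not among the 73, so its promoter was not searched. The NRF1 motif, the 10 letters in capitals in the first 2 promoters printed here, reads the same on both strands and was in 9.59% of the 73, beside 2.03% of 9219 promoters of other tested genes. CCGGAAG, a motif of the ETS factor GABPA, was in 24.7% beside 18.3% on either strand. The YY1 motif AAGATGGCG was in 9.59% beside 3.35%, CCAAT in 42.5% beside 37.9% and TATAAA in 8.22% beside 6.90%. For Atp5mc2 the RefSeq window lay inside the span of the gene given above, not at its outer end. The NRF1 motif, in capitals, was in the promoter of Atp5mc2 (chr15:102670998-102671297, minus strand), called higher in S6k2_RK, and in that of Ndufaf5 (chr2:140170396-140170695, plus strand), called lower in Snd1_KI:
Atp5mc2: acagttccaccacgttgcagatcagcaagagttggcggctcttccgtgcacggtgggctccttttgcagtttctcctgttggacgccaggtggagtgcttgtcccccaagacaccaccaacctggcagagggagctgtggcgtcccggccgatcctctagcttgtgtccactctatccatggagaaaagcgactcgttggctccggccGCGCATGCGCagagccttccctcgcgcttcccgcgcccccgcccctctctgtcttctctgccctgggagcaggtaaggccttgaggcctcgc
Ndufaf5: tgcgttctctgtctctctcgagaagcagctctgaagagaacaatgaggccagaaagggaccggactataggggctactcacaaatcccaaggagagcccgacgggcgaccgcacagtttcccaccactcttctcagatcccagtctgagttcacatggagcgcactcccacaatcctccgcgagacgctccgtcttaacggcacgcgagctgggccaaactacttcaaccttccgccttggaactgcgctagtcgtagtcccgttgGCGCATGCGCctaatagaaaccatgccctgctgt
The promoter of Atp5mk (chr19:47090598-47090897, minus strand), lower in both mutants, has the GABPA motif on the opposite strand, in capitals, and Ndufb8 and Ndufb4 had neither motif in this window:
Atp5mk: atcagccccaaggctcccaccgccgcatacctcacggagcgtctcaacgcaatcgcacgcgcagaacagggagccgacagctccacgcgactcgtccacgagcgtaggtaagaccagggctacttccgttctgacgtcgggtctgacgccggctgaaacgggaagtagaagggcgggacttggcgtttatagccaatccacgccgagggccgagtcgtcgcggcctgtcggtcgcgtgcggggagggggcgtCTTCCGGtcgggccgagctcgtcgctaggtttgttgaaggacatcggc

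The complexes did not move as blocks against WT. In S6k2_RK against WT the median log2 fold change was 0.21 over the 4 subunits of complex II, 0.14 over 17 nuclear subunits of complex V, 0.12 over 36 of complex I and 13 of complex IV, 0.002 over 8 of complex III and -0.24 over 8 complex I assembly factors. In Snd1_KI against WT the medians were 0.11 for complex II, -0.07 for complexes V and I, -0.08 for complex IV, -0.15 for complex III and -0.09 for the assembly factors. Complex II was the only complex whose subunits had a positive estimate throughout in both, 4 of 4 each, and none of them was called. The estimate of Sdhc in Snd1_KI was only 0.0047. With equal totals the complex II median was -0.31 in S6k2_RK and -0.18 in Snd1_KI, beside -0.51 and -0.28 over all tested genes. The catalytic flavoprotein of complex II, Sdha, had 845 ± 85.9 normalized counts in S6k2_RK, 843 ± 27.6 in Snd1_KI and 695 ± 43.3 in WT (mean ± SD, n = 3), with log2 fold changes of 0.28 in both (limma adjusted p = 0.0913 in S6k2_RK and 0.132 in Snd1_KI against WT).

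Summed over its subunits, complex II had 1988, 2111 and 2144 normalized counts in S6k2_RK, 1933, 1990 and 2101 in Snd1_KI and 1715, 1944 and 1748 in WT. S6k2_RK lay above WT throughout and Snd1_KI overlapped WT at WT replicate 2. The nuclear subunits of complex V summed to 17467 ± 981 in S6k2_RK, 15661 ± 871 in Snd1_KI and 15734 ± 1182 in WT, and those of complex I to 12343 ± 595, 11036 ± 548 and 11634 ± 1190 (mean ± SD, n = 3).

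**Figure D3:**
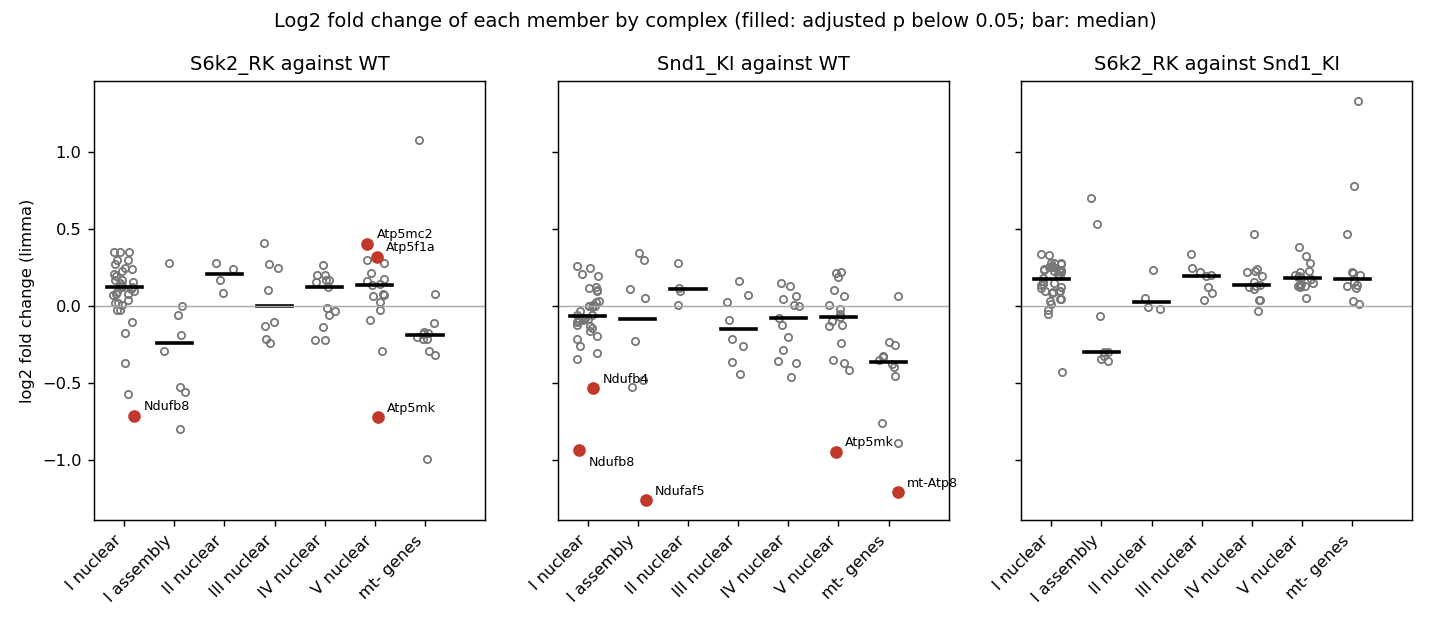
Log2 fold change from limma (vertical axis) of each member in 3 comparisons, grouped by complex, with the mt- genes together; filled points have an adjusted p below 0.05 and bars are medians. Called members are few and sit away from their complex's median. In S6k2_RK against Snd1_KI the medians of complexes I to V and of the mt- genes are above 0, and that of the complex I assembly factors is below 0.

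**Figure D4:**
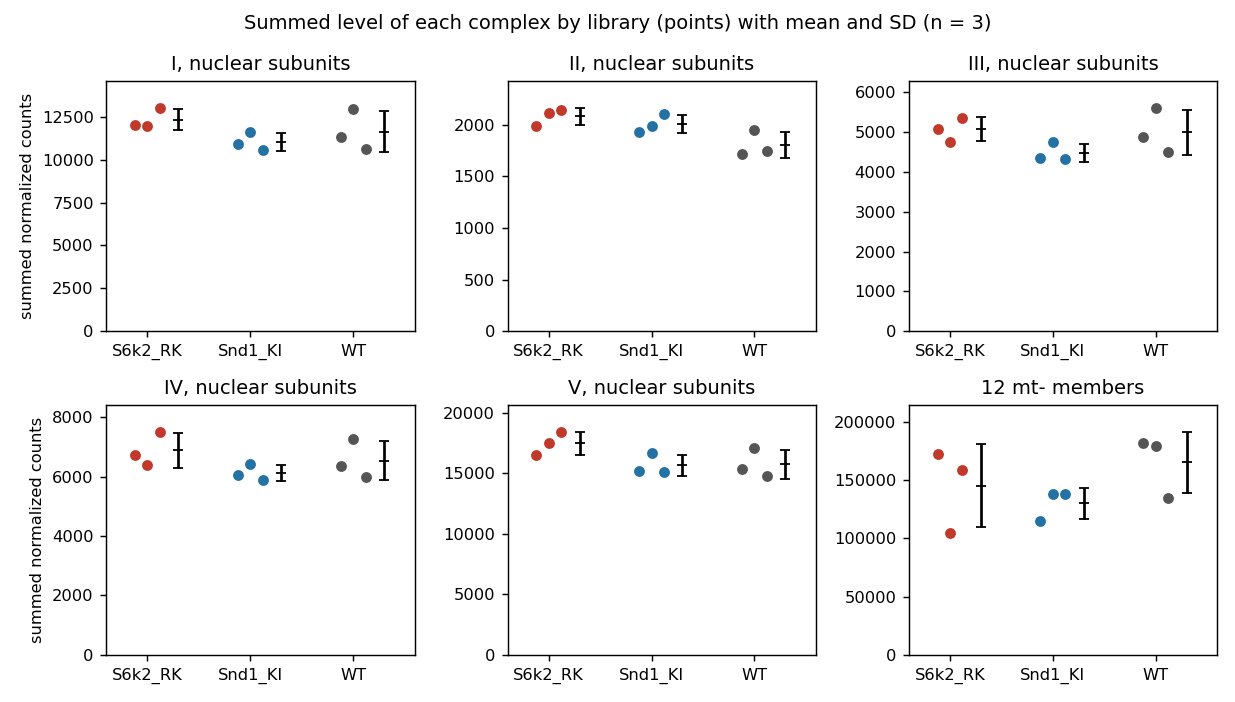
Summed normalized counts (vertical axes, from 0) of the nuclear subunits of each complex and of the 12 mt- members, with each point 1 library and bars showing the mean and SD (n = 3) of S6k2_RK, Snd1_KI and WT. Complex II sums in S6k2_RK (1988 to 2144) are above those in WT (1715 to 1944), and the other sums overlap between S6k2_RK and WT.

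Set directly against each other, the mutants gave no limma call among the 101 members, beside 0.0586% of all tested genes called in each direction. At an unadjusted limma p below 0.05 there were 13 of the 101, beside 1207 of all 11953 tested genes. Of the members edgeR called 0, and DESeq2 called 1 (0 without S6k2_RK replicate 1), Cox7a2l, which helps respiratory complexes assemble into supercomplexes. Cox7a2l had 650, 515 and 760 normalized counts in S6k2_RK, 470, 438 and 466 in Snd1_KI and 487, 595 and 505 in WT. S6k2_RK lay above Snd1_KI throughout, by 0.47 on the log2 scale (SE 0.132), with an adjusted p of 0.203 in limma and 0.0334 in DESeq2. Its pseudogene Gm6969, 97.7% identical over 342 bases, held 14.1% as many counts. Of all tested genes edgeR called 0.0837% higher and 0.0753% lower, and DESeq2 0.435% and 0.0418%.

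Most nuclear estimates of S6k2_RK against Snd1_KI were positive, 76 of 89, with a median log2 fold change of 0.15 beside -0.005 over all tested genes. Libraries did not overlap for 29 members that were higher in S6k2_RK and for 1 that was lower, Ndufaf3, an assembly factor; these are 28.7% and 0.990% of 101, beside 7.81% and 7.35% of all tested genes. All 17 nuclear subunits of complex V and all 8 of complex III had positive estimates, as had 33 of 36 in complex I and 12 of 13 in complex IV, but only 2 of 4 in complex II. The complex I assembly factors went the other way, with 2 positive and 6 negative estimates of 8 and a median of -0.30. With equal totals the nuclear median was -0.08, where the median of all tested genes was -0.23. None of the 7 called members passed the test between the mutants, with limma adjusted p of 0.705 for Atp5mk, 0.760 for Ndufb8, 0.758 for Ndufb4, 0.415 for Ndufaf5, 0.868 for mt-Atp8, 0.672 for Atp5f1a and 0.610 for Atp5mc2, although the libraries of Ndufaf5 and Atp5mc2 did not overlap.

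Members were also set beside the other tested genes of like transcript length, with members left out. In the 29 shortest nuclear members, 362 to 625 nt, the median log2 fold change of S6k2_RK against Snd1_KI was 0.15. It was 0.17 over the 236 other tested genes of up to 638 nt. In the middle 29 members it was 0.21, beside 0.13 over 741 other genes, and in the longest 29 it was 0.10, beside -0.01 over 10858 other genes. In S6k2_RK against WT the 3 classes had medians of 0.08, 0.03 and 0.16, beside -0.05, -0.01 and 0.0038 over the other tested genes of those lengths. In Snd1_KI against WT the same 3 classes had medians of -0.10, -0.12 and 0.05, beside -0.23, -0.10 and 0.02 over the other tested genes of those lengths. Across the 87 nuclear members Spearman's rho between length and log2 fold change was 0.28 in S6k2_RK against WT, 0.39 in Snd1_KI against WT and -0.20 in S6k2_RK against Snd1_KI. Across all tested genes, members included, it was -0.03, 0.12 and -0.19. These genes share the same 9 libraries, and the part of length in the result was not tested.

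**Figure D5:**
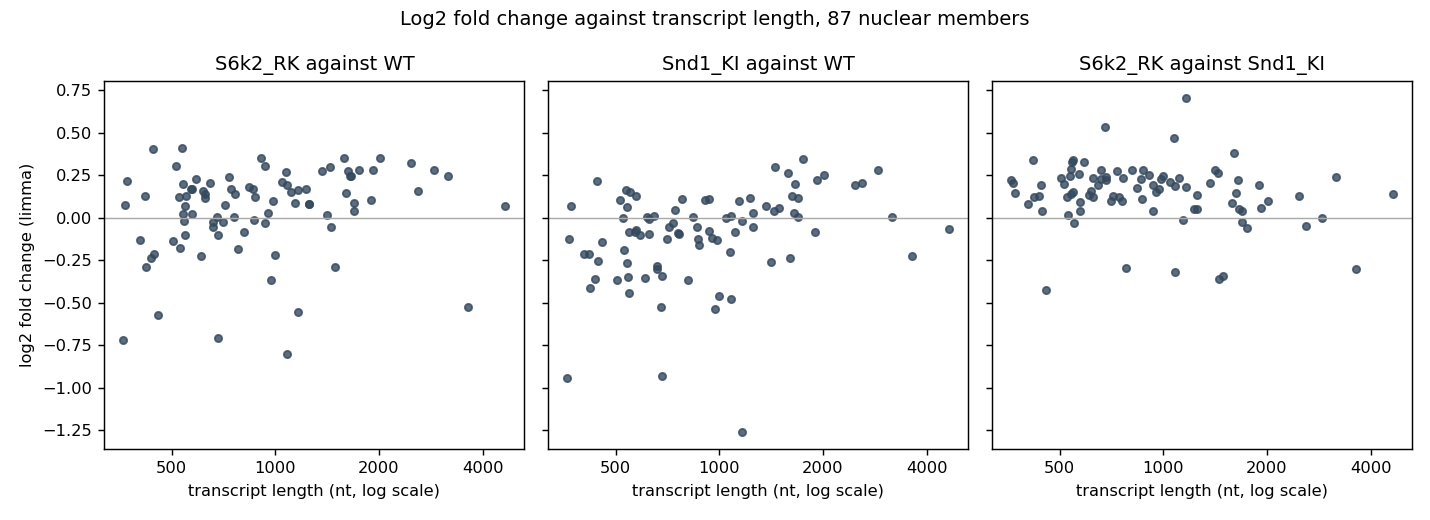
Log2 fold change from limma (vertical axis) against transcript length in nt (horizontal axis, log scale) for the 87 nuclear members without pseudogenes in 3 comparisons, each point 1 gene. The rank correlation is 0.39 in Snd1_KI against WT, and in S6k2_RK against Snd1_KI most points lie above 0.

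Lists of genes that build, feed or regulate the chain had 0% to 42.9% of their tested members called in S6k2_RK against WT, beside 5.20% of all tested genes called higher and 6.83% lower, and 0% to 11.1% in Snd1_KI against WT, beside 2.40% and 3.20%; the lists are small, and 42.9% is 3 of 7. Of all 11953 tested genes, 3224 had an unadjusted limma p below 0.05 in S6k2_RK against WT and 2402 in Snd1_KI against WT. Of 42 tested assembly factors outside the Ndufaf genes none was called against WT in either mutant by limma, with 10 at an unadjusted p below 0.05 in S6k2_RK and 4 in Snd1_KI. The median log2 fold change of these factors was -0.03 in S6k2_RK and -0.15 in Snd1_KI. Of 20 electron carrier and coenzyme Q genes 2 rose in S6k2_RK, Coq8a, a kinase-like protein of coenzyme Q synthesis (log2 fold change 0.82, limma adjusted p = 0.000748), and Etfdh, which passes electrons to coenzyme Q (0.41, limma adjusted p = 0.0387), and Etfdh also rose in Snd1_KI (0.45, limma adjusted p = 0.0414). Of 7 carriers of ATP, phosphate and protons, Slc25a5, which exchanges ADP for ATP, and the outer-membrane channel Vdac2 rose in S6k2_RK (0.41 and 0.32), and the uncoupling protein Ucp2 fell (-0.42, limma adjusted p = 0.0363); none was called in Snd1_KI by limma, with 1 at an unadjusted p below 0.05. Ucp2 is also expressed by immune cells, whose markers were lower in the same libraries, and their part in its fall was not tested.

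Of 18 genes of the citric acid cycle and pyruvate dehydrogenase, Suclg2 and Pdha1 rose in S6k2_RK (0.44 and 0.37) and Suclg2 and Idh2 rose in Snd1_KI (0.43 and 0.37). Of 27 genes that express the mitochondrial genome, the RNA-binding proteins Grsf1 and Ptcd2 rose in S6k2_RK (0.40 and 0.56) and none was called in Snd1_KI by limma, with 1 at an unadjusted p below 0.05. Of 13 regulators of mitochondrial biogenesis, Ppara rose and Pprc1 fell in S6k2_RK (0.87 and -0.73). Of 23 import genes, Tomm5, a small subunit of the outer-membrane translocase, fell in Snd1_KI (-0.78, limma adjusted p = 0.0139). Of 13 mitochondrial chaperones and proteases none was called in either mutant by limma, with 2 and 1 at an unadjusted p below 0.05. With equal totals Etfdh, Slc25a5, Vdac2, Suclg2, Pdha1 and Grsf1 had negative estimates in S6k2_RK, between -0.08 and -0.20, and Etfdh, Idh2 and Suclg2 remained positive in Snd1_KI.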

How the data were processed

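Whole pancreas of 3 S6k2_RK, 3 Snd1_KI and 3 WT mice was sequenced as paired-end 150 bp reads, per the labels' protocols. The authors deposited 1 table of normalized counts, a signal made by dividing each library's gene counts by 1 size factor; DESeq2 and the builds GRCm38 and mm10 are named in the submitters' processing notes, and the aligner, counter and annotation release are not given in the sources used here. Dividing by the smallest value gave whole reads within 1e-06. In S6k2_RK replicate 1 that value was so close to 1 that recovery could not be checked, so tests on reads were also run without it.

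The 11953 genes averaging 10 or more normalized counts were fitted with limma 3.58.1 in R 4.3.3 on log2(normalized count + 1), all 9 libraries in 1 fit, with p-values adjusted by Benjamini-Hochberg over all of them. Fold changes are on that log2 scale and understate changes of low genes. The script was tested on simulated data. Each library was left out in turn, and edgeR 4.0.16 and DESeq2 1.42.0 were run on the recovered reads; further alternatives changed the pseudocount, filter or scaling, made the fit robust, weighted the arrays, added a replicate block or used the compared groups alone. The 3 libraries per group and this depth limit the precision; they were labelled as separate mice, and replicates varied beyond sampling noise, with chi-square values of 8.16 to 22.2 for each degree of freedom.

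Lengths are of a principal transcript in GENCODE M21 (GRCm38), with the best support and median length. Copies were searched with blastn 2.17.0 against the annotated transcripts; a copy of a nuclear gene had at least 95% identity over at least 100 nt and 20% of the transcript. Members and gene lists were chosen with earlier results of these data known. Genes named were every mt- member, every called nuclear member, the 2 highest per kb in each complex, the largest changes among means of at least 50, isoform pairs, and at most 3 called genes of each other list; Gm29216, Gm28437, Ndufaf3 and Sdha were named after their values were seen.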

Additional observations from a re-analysis of the deposited data

How the results depend on the processing

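Of the named calls, that of Atp5mk in Snd1_KI against WT held in all 24 alternatives, and the others were each lost when some libraries were left out. The number called higher in S6k2_RK against WT (2) was 0 with equal totals and with only the groups compared, 4 with array weights, 1 by edgeR and 5 by DESeq2 without S6k2_RK replicate 1, and ranged from 0 to 5 over left-out libraries. The number called lower (2) was 66 with equal totals and 4 by edgeR, and ranged from 0 to 5. In Snd1_KI against WT the number called higher (0) was 1 with array weights, and the number called lower (5) was 2 with a minimum mean of 50, 36 with equal totals, 12 with array weights, 8 with only the groups compared and 8 by DESeq2 with or without S6k2_RK replicate 1; it ranged from 1 to 10 over left-out libraries. In S6k2_RK against Snd1_KI DESeq2 called 1 higher (0 without S6k2_RK replicate 1), and left-out libraries gave 0 to 2. The share of all tested genes called was not computed for array weights, a minimum mean of 50, the compared groups alone or left-out libraries. Counts in those settings therefore cannot be set against all tested genes.

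With equal totals the medians in S6k2_RK against WT were -0.41 for nuclear and -0.71 for mt- members, those in Snd1_KI against WT -0.34 and -0.65, and that of nuclear members in S6k2_RK against Snd1_KI -0.080, beside -0.51, -0.28 and -0.23 over all tested genes. Beside 49.8% of all tested genes called lower in S6k2_RK against WT and 13.2% in Snd1_KI against WT, equal totals turned Atp5f1a to -0.20 and Atp5mc2 to -0.11 in S6k2_RK. Over left-out libraries the medians in Snd1_KI against WT ranged from -0.10 to 0.020 for nuclear and from -0.51 to -0.27 for mt- members. The cause of these shifts beyond the scaling itself was not tested.

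Same-numbered libraries did not deviate together (correlations from -0.08 to 0.05), so the numbers were not read as pairs. With a replicate block Ndufb4 in Snd1_KI against WT had a limma adjusted p of 0.0600 and the number of members called lower there was 4; the block changed no other call. The results with S6k2_RK replicate 1 left out of edgeR and DESeq2 were chosen after seeing the data. Depth was lowest in WT replicate 3, at 13461427 reads.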
